A study of Lates calcarifer with 8 samples.

Results

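The 60 transcripts described here had, in the brain of the Asian seabass, more signal in each of 4 females than in any of 4 males, and by the widest margins among the probes detected in females. They were chosen from these same values. Starting from 60080 probes, the choice kept those printed on 1 spot, not marked as non-uniform on any array, and well above background on all 4 female arrays, which left 25567. "Well above background" is the scanner software's own mark for a spot. The value of a spot was the log2 of its processed signal minus the log2 of the same array's 75th percentile, so that 0 stands for a probe at that percentile. The gap of a probe was its lowest female value minus its highest male value, and the 60 probes with the largest gaps are the members. A gap above 0 means that the sexes did not overlap, which held for 471 of the 25567 probes (1.84%) and, by the choice itself, for 60 of 60 members. Since the sex difference selected the members, it is given below as a description, and no test of sex supports anything said of them.

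The samples were 8 adult Asian seabass (Lates calcarifer), each 5 years old. The 4 females had ovaries at the stage labelled F3 and the 4 males had testes at the stage labelled M3. Each sex thus came with a single gonad stage, and a difference of sex cannot be told apart from one of stage. The labels name no treatment, and what the groups share is age, tissue and array design. The whole brain with the pituitary was homogenized, and RNA of each fish went on its own 1-colour oligonucleotide array. Throughout, n counts fish, 4 per sex. In such a bulk extract, fewer cells of a type and less RNA per cell cannot be told apart.

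The Asian seabass is a sequential hermaphrodite in which most fish mature first as males and later become females. In fish, the hypothalamus drives the pituitary through gonadotropin-releasing hormone, the pituitary secretes the gonadotropins that act on the gonad, and sex steroids from the gonad feed back on both. Teleost brains are also known for high activity of aromatase, the enzyme that makes oestrogen from androgen, in radial glia. The array carried no gene names. Each probe has 1 target ID of the form SBRGG followed by a number, none of the IDs (0) matched the 32906 genes of the RefSeq table for this species, and no role is therefore given to any member. For the same reason the tissue label was not checked against marker genes.

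All 8 arrays lay on 1 slide, in 2 rows and 4 columns. Of these, females 1 and 2 shared slide row 1 with males 1 and 2, and the others lay in row 2. The 75th percentile of the signal was lowest in female 2, at 93.1 intensity units, and lay between 105 and 129 on the other arrays. The share of spots well above background was also lowest in female 2, at 49.2%, and highest in female 1, at 59.5%. No spot was saturated on any array (0).

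The gaps of the members ran from 3.97 down to 0.48 on the log2 scale, with a median of 0.96. In linear terms the lowest female lay 15.7-fold above the highest male for the first member and 1.39-fold for the last. The first member had no male spot well above background, so its 15.7 divides by a signal near background. The gaps did not fall evenly. The first 14 members had gaps over 2, the fourteenth at 2.31 and the fifteenth at 1.62. This step of 0.70 was the widest between neighbouring ranks, the next widest being 0.34. It rests partly on male values near background, since 6 of the 14 had no male spot well above background. With dim male values raised to the detection floor described below, the gaps of these 6 lay between 1.15 and 2.24. The fourteenth then stood at 1.90, against 1.62 for the fifteenth. Ranks 3 and 13 fell to 1.29 and 1.15, below the fifteenth, so the first 14 were no longer set apart. Gaps over 1 were held by 29 members. At the lower end there was no step, since the last member stood at 0.48 and the first probe left out at 0.47.

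**Figure D1:**
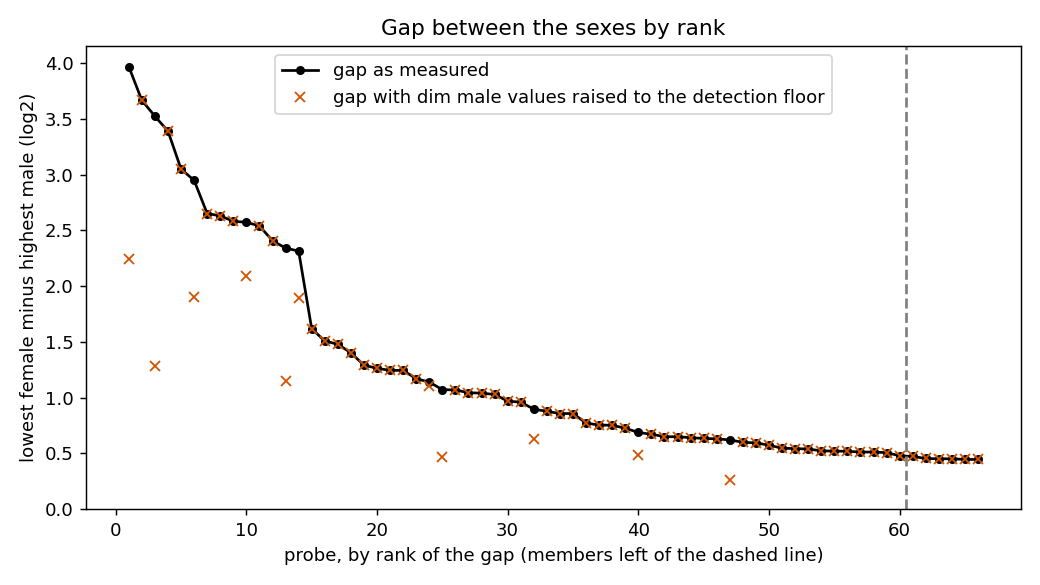
Gap between the sexes (lowest female minus highest male, log2) for the 60 members, left of the dashed line, and the next 6 probes. Black points are the gaps as measured and orange crosses the gaps after male values under the detection floor of their array were raised to that floor; the black points drop from 2.31 to 1.62 between ranks 14 and 15, and the crosses lie below the points for 11 of the 12 members with no male well above background.

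Detection in males divided the members into 3 groups. On all 4 male arrays 39 members were well above background, on 1 to 3 of them 9 were, and on none of them 12 were. Of all 25567 probes that passed the filter, 95.7% were well above background on all 4 male arrays and 0.0587% on none. These shares come from the contrast that chose the members, and nothing is read from the difference. Of the first 14 members 6 were measured on all male arrays, 2 on some and 6 on none.

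The transcripts measured on every array allow a fold to be given, on the scale of the processed signal. Another background correction was normexp on median spot signals, with an offset of 50 units added to every spot, followed by quantile normalization. After it the fold was smaller for each of these 39 members, with a median of 2.19 in place of 3.14. Adding a constant lowers any fold, most of all for dim spots, so a smaller fold was largely fixed in advance. How much each part of this setting moved the folds was not tested. The largest fold on the processed signal was that of target SBRGG_44190 (probe CUST_7402_PI428621111). In log2 units it read 2.02, 3.31, 2.16 and 2.12 in females, given in the order of fish 1 to 4 here and below, while the males read -2.22, -2.19, -1.61 and -1.37. Female 2 stood above the other 3 females, and the lowest female still lay 3.39 above the highest male. The female mean was 2.40 ± 0.61 and the male mean -1.85 ± 0.43 (SD, n = 4 each), a difference of 4.26, or 19.1-fold. After normexp it was 6.26-fold.

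Target SBRGG_22716 (probe CUST_39190_PI428621111) read 3.44, 3.47, 3.93 and 3.86 in females and -0.39, -0.25, 0.39 and 0.11 in males. The spread within each sex was small beside the difference of 3.71, which is 13.1-fold. Target SBRGG_19051 (probe CUST_2550_PI428621111) was even among females, at 3.42, 3.60, 3.72 and 3.35, and uneven among males, at -2.46, -0.10, -0.98 and 0.70. Male 4 was the highest male and male 1 the lowest. The mean difference was 4.23 (18.7-fold) and the gap 2.65, and by its definition a gap never exceeds the difference of means. Target SBRGG_40442 (probe CUST_36452_PI428621111) was the tightest of the first 12, with 2.97, 3.05, 2.82 and 2.91 in females and -0.04, -0.06, 0.12 and 0.19 in males. The intensity of its spots was 989, 769, 904 and 966 in females and 119, 105, 114 and 123 in males. After scaling it was 7.39-fold higher in females, with SDs of 0.10 and 0.12 on the log2 scale (n = 4 each).

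In target SBRGG_33841 (probe CUST_6637_PI428621111) female 2 was again the highest female, with 2.71, 3.70, 2.91 and 2.79 across the females. The males read -0.31, -1.94, -0.57 and 0.17, male 2 lowest. The difference of means was 3.69, or 12.9-fold. Target SBRGG_16896 (probe CUST_20080_PI428621111) had 1.96, 3.73, 2.58 and 2.17 in females and -0.95, -1.43, -2.07 and -0.45 in males. Here too female 2 was highest, and the mean difference was 3.83, or 14.3-fold.

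Over the 39 members measured on all 8 arrays the fold ran from 1.73 to 19.1, with a median of 3.14. After normexp the range was 1.33 to 10.8. On the processed signal it was over 8-fold in 6, between 4- and 8-fold in 5, between 2- and 4-fold in 22 and under 2-fold in 6. The member with the highest female mean, SBRGG_44670, was in this group at rank 18. It read 2.98, 4.88, 4.49 and 4.47 in females, female 1 lowest, and -0.58, 1.18, 0.93 and 1.58 in males, male 1 lowest. The means were 4.20 ± 0.84 for females and 0.78 ± 0.94 for males (SD, n = 4 each), or 10.8-fold, although its gap was only 1.40.

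**Figure D2:**
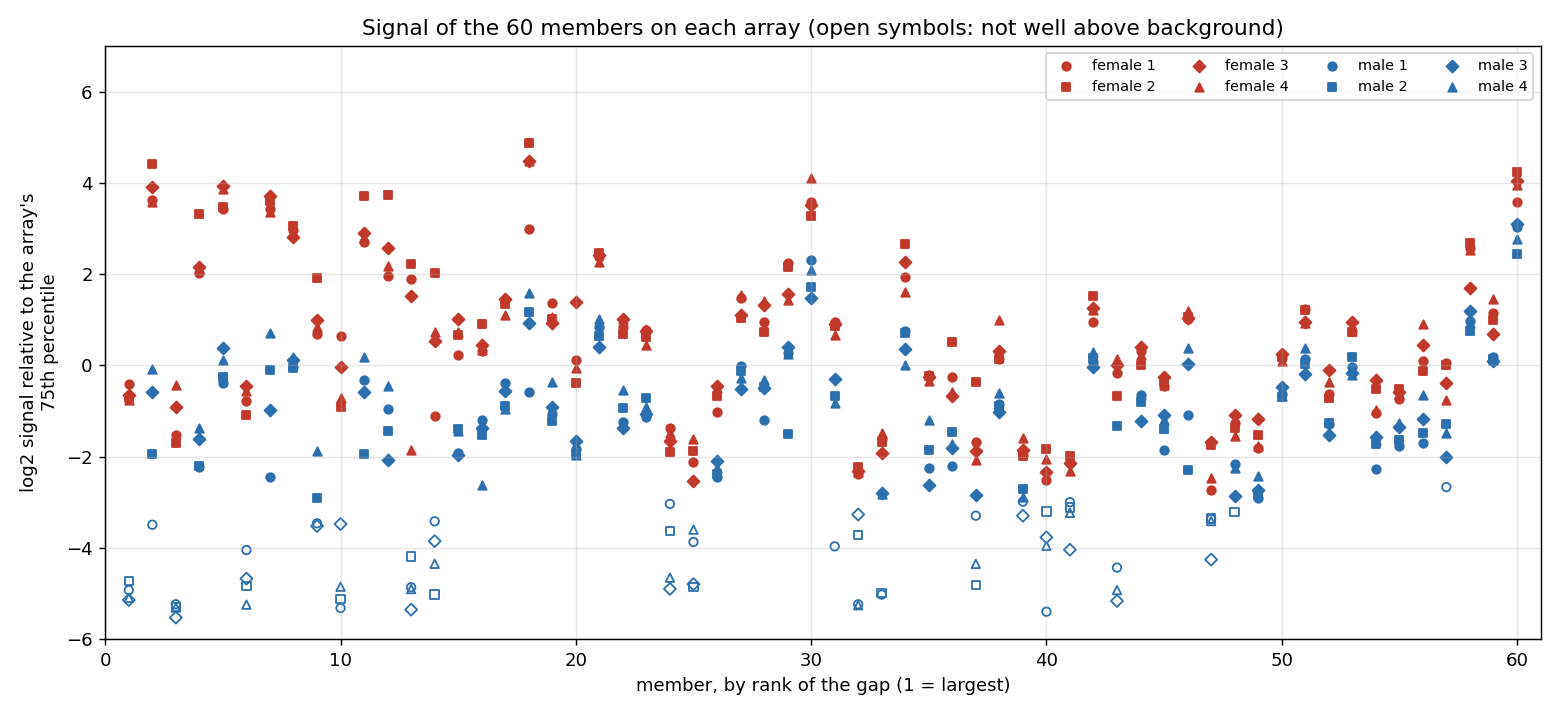
Log2 signal after subtraction of the 75th percentile of each array (vertical axis) of the 60 members on each of the 8 arrays, ordered by the rank of the gap; red symbols are females, blue symbols males, and open symbols spots not well above background. Every red symbol lies above every blue symbol of the same member, as the choice requires, and open symbols occur in males only, for 21 members.

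The 12 members that were not well above background on any male array have only an approximate lower bound for their fold. For the bound, each male value below the detection floor of its array was raised to that floor, and the female mean was set against the mean of the males so treated. The floor is the lowest value well above background, which lay between -3.20 and -3.00 on the male arrays. Some spots above the floor also lacked the mark, such as that of SBRGG_43280 in male 1, at -2.67 against a floor of -3.17. An unmarked male signal may therefore lie above the floor, and "at least" below is meant in this approximate sense. The spots of these members read 18.9 to 466 intensity units in females and 2.28 to 15.4 in males. The bounds ran from 1.71 to 16.4 with a median of 3.31, and 2 of the 12 exceeded 8-fold, 3 lay between 4 and 8, 3 between 2 and 4, and 4 under 2. These bounds hold for the processed signal only. After normexp, whose offset lowers the fold of dim spots most, the fold of each of the 12 members was under its bound. These folds ran from 1.19 to 4.52 with a median of 1.72.

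The first member by gap, target SBRGG_30397 (probe CUST_10564_PI428621111), belongs here. Its processed signal was 95.5, 56.9, 81.9 and 76 in females and 4.05, 4.15, 2.98 and 3.16 in males, in intensity units. After scaling, the females lay between -0.76 and -0.40 and the males between -5.14 and -4.73. The scanner software's own errors of the male spots were 4.06, 4.16, 3.00 and 3.16 units, about as large as the signals. The narrow male band is therefore not read as likeness between the fish. The gap of SBRGG_30397 was 3.97, which fell to 2.24 with the males at their floor. Its signal was at least 5.51-fold higher in females, against 2.06-fold after normexp. Target SBRGG_47180 (probe CUST_37258_PI428621111) read -1.52, -1.71, -0.92 and -0.42 in females and -5.23, -5.29, -5.53 and -5.31 in males. Its male spots were also near their errors, at 3.27, 2.80, 2.28 and 2.73 units against 3.00, 2.81, 2.30 and 2.74. Its gap of 3.52 fell to 1.29 with the males at their floor, at least 3.86-fold, against 2.11-fold after normexp. Target SBRGG_27671 (probe CUST_41905_PI428621111) read -0.79, -1.10, -0.44 and -0.56 in females and -4.05, -4.83, -4.67 and -5.24 in males, at least 5.17-fold.

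Target SBRGG_03688 (probe CUST_7533_PI428621111) varied more among females, at 0.64, -0.90, -0.03 and -0.71, with female 1 highest and female 2 lowest. Its males read -5.32, -5.12, -3.48 and -4.85, and male 3 was the highest of them. The signal was at least 7.16-fold higher in females. The 2 members with the widest range among females follow it. Target SBRGG_46190 (probe CUST_41273_PI428621111) read 1.89, 2.22, 1.51 and -1.85 in females and -4.86, -4.19, -5.35 and -4.90 in males. Female 4 stood far below the other 3 females and still above every male, so the largest lower bound, 16.4-fold, goes with the largest SD among females, 1.88 (n = 4). Target SBRGG_61185 (probe CUST_32878_PI428621111) read -1.10, 2.02, 0.54 and 0.73 in females and -3.42, -5.02, -3.85 and -4.35 in males, at least 12.5-fold. Female 1 was the lowest female and set its gap of 2.31.

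The other 6 of these 12 were dim in females as well. The 3 lowest female means of all members were among them. Target SBRGG_32778 read -2.37, -2.23, -2.32 and -2.34 in females and -5.23, -3.71, -3.27 and -5.25 in males, at least 1.71-fold. Its females were nearly equal, and its males lay below them. The male spread is not read as a difference between fish. Males 1 and 4, at 3.27 and 2.83 units, had errors of 3.29 and 2.84. Target SBRGG_34124 read -2.51, -1.84, -2.32 and -2.06 in females and -5.40, -3.20, -3.77 and -3.95 in males, at least 1.87-fold. Target SBRGG_02610 read -2.73, -1.75, -1.67 and -2.46 in females and -3.37, -3.36, -4.25 and -3.41 in males, at least 1.91-fold. With female signal this close to the floor, the bound cannot be large. The remaining 3, named after their values were seen, were SBRGG_31601, SBRGG_28905 and SBRGG_16256, with bounds of 2.75-, 2.08- and 1.87-fold.

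By a looser mark of the scanner software, signal positive and significantly above background, no member was undetected on every male array (0 of 60), since each of the 12 carried that mark on 1 to 4 male arrays. For SBRGG_30397, SBRGG_47180 and SBRGG_03688 it was 1 male array only. A member not well above background in males is therefore not shown to lack the transcript. On male arrays without either mark, its signal was not told apart from background.

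Of the 9 members well above background on some male arrays only, target SBRGG_44191 (probe CUST_12144_PI428621111) had the second largest gap of all members, 3.67. Its processed signal was 1551, 1969, 1913 and 1542 in females and 10.9, 28.8, 70.7 and 102 in males. The females were all bright. The males spread from male 1, not well above background, to male 4, well above it. The means were 3.88 ± 0.38 and -1.52 ± 1.53 (SD, n = 4 each). Their fitted difference of 5.40 rests partly on signal near background. Target SBRGG_23747 (probe CUST_40596_PI428621111) read 0.70, 1.92, 0.99 and 0.84 in females and -3.46, -2.90, -3.52 and -1.88 in males, with males 2 and 4 well above background and males 1 and 3 not.

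The members with the widest range among males were also in this group. In target SBRGG_37903 male 2 read -1.33 while males 1, 3 and 4 read -4.43, -5.16 and -4.92, so its gap of 0.65 was set by 1 male against females at -0.17, -0.68, 0.02 and 0.14. Males 1, 3 and 4 were not well above background, and males 3 and 4 had errors about as large as their signals. The width of this male range therefore rests on signal near background. In target SBRGG_06771 male 1 stood apart below the others, with -3.97, -0.67, -0.30 and -0.82 in males and 0.95, 0.86, 0.90 and 0.66 in females. The spot of male 1 was not well above background here. The other 5, named after their values were seen, were SBRGG_06864 and SBRGG_40263 with 2 male arrays well above background, SBRGG_04190 with 1, and SBRGG_03590 and SBRGG_43280 with 3. Their female means ran from -1.85 to -0.27, and their male means from -3.90 to -1.86.

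The edge of the choice was not a boundary in the data. The last 3 members inside it were SBRGG_29146, SBRGG_20924 and SBRGG_42622. Target SBRGG_42622 was among the 3 brightest members in females, with 3.57, 4.24, 4.04 and 3.96 against 3.04, 2.43, 3.09 and 2.77 in males and a gap of 0.48. Target SBRGG_29146 read 2.58, 2.69, 1.70 and 2.53 in females, female 3 lowest, and 0.97, 0.75, 1.19 and 0.93 in males. Target SBRGG_20924 had means of 1.08 ± 0.32 and 0.13 ± 0.04 (SD, n = 4 each). The first 3 probes left out were SBRGG_06888, SBRGG_24030 and SBRGG_24287, with gaps of 0.47, 0.46 and 0.45. Target SBRGG_24030 read 2.97, 3.10, 2.87 and 3.04 in females and 1.77, 2.11, 2.26 and 2.41 in males, a difference of 0.86 with no overlap, much like the members beside it.

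Among the members, 2 pairs of targets lay within 2 numbers of each other in the design's ID series, a feature the choice did not use. Whether neighbouring IDs share a gene or a sequence is not stated in the sources used here. The pair SBRGG_44190 and SBRGG_44191 ranked 4 and 2. Their differences were 4.26 and 5.40. Both were highest in female 2 and in male 4. The same held for SBRGG_40442, SBRGG_23747, SBRGG_33841 and SBRGG_16896, at ranks 8, 9, 11 and 12, so it is not particular to the pair. The target before the pair, SBRGG_44189, read 4.45, 4.31, 4.44 and 4.49 in females and 4.52, 4.45, 4.48 and 4.56 in males, with the sexes overlapping, and the target after it, SBRGG_44192, was well above background in 1 female and 1 male only. The other pair, SBRGG_01847 and SBRGG_01849, ranked 21 and 17. Target SBRGG_01847 read 2.37, 2.46, 2.41 and 2.27 in females and 0.84, 0.64, 0.41 and 1.02 in males. Target SBRGG_01849 had a female mean of 1.33 ± 0.16 against -0.70 ± 0.27 for the males (SD, n = 4 each). Differences were 1.65 and 2.03, both with tight females. The target between them, SBRGG_01848, was well above background on 1 female array and no male array, and SBRGG_01850, just after them, read 2.69, 2.75, 2.27 and 2.57 in females and 3.30, 2.85, 3.09 and 3.13 in males.

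As a group the members were spread over much of the brightness range in females, apart from its upper end. Their median female mean was 0.52, against 0.15 for all probes that passed the filter, and the quartiles were -0.64 and 1.30 against -1.01 and 1.82. None had a female mean above 4.20, while probes that passed the filter reached 11.9. Each bin of 1 log2 unit from 5 upward held 2.01% of those probes or less, so nothing is read from the absence of members there. At the dim end, between -3 and -2, lay 8.33% of the members, against 4.55% of those probes. The median male mean of the members was -1.47, against 0.15 over those probes. The median difference between the sexes was 1.86 for the members, with a range from 0.79 to 5.77, and -0.01 over all probes that passed the filter.

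**Figure D3:**
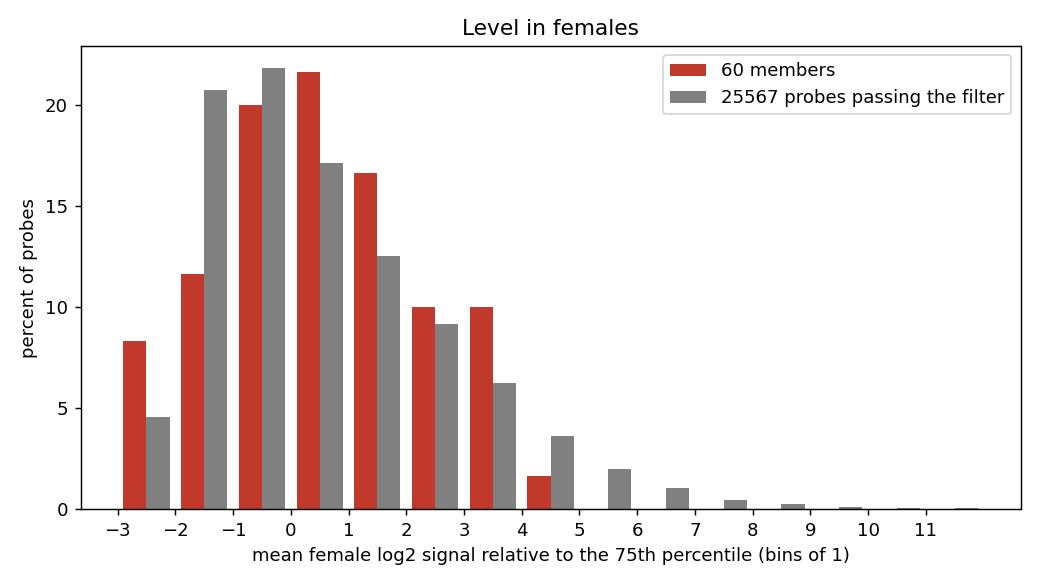
Percent of probes (vertical axis) by mean female log2 signal relative to the 75th percentile, in bins of 1, for the 60 members (red) and for all 25567 probes that passed the filter (grey). The members lie between -2.32 and 4.20. The probes that passed the filter reach 11.9, but each bin from 5 upward holds 2.01% of them or less. Nothing is read from the absence of members there.

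The range among males was wider than that among females in 40 of 60 members. This held for 17 of the 21 members with a male spot not well above background and for 23 of the 39 measured on all 8 arrays. The choice asked for detection in females only, and whether that bears on these ranges was not tested. How often the male range was wider among all probes that passed the filter was not counted, so nothing is read from the 40. Over the 60 members the median SD was 0.37 in males and 0.29 in females (n = 4 each), against 0.28 and 0.31 over all probes that passed the filter. The median member value ranged only from 0.32 in female 1 to 0.65 in female 2, with females 3 and 4 at 0.62 and 0.55. For the males it was -1.84, -1.47, -1.37 and -1.20. Female 2 was the highest female in 21 members (35.0%), where it was highest in 31.2% of all probes that passed the filter, and it was highest in 8 of the first 14. This was also the array with the lowest 75th percentile, whose part in those values was not tested. Female 3 was highest in 17 members (28.3%, against 17.8% of all such probes), female 4 in 12 (20.0%, against 24.6%) and female 1 in 10 (16.7%, against 26.4%). Among males, male 4 was highest in 21 members (35.0%, against 29.5%) and in 7 of the first 14. Male 3 was highest in 14 members (23.3%, against 26.0%), male 1 in 13 (21.7%, against 28.1%) and male 2 in 12 (20.0%, against 16.4%). At the other end, male 3 was the lowest male in 22 members (36.7%, against 23.9%) and male 4 in 7 (11.7%, against 20.3%). Male 1 was lowest in 19 (31.7%, against 27.0%) and male 2 in 12 (20.0%, against 28.7%). Among females, female 1 was lowest in 20 members (33.3%, against 23.8%) and female 3 in 7 (11.7%, against 22.1%). Female 4 was lowest in 17 (28.3%, against 28.5%) and female 2 in 16 (26.7%, against 25.7%).

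Slide row crosses sex, with 2 females and 2 males in each row, and was a contrast that the choice of members did not use, although a large gap favours probes of small spread within a sex. In limma with sex as covariate, none of the members differed between rows at an adjusted p under 0.05 (0 of 60), where 15 of 32850 tested probes did (0.0457%). At an unadjusted p under 0.05 there were 5 members (8.33%), against 14.0% of all tested probes. These were SBRGG_52635, SBRGG_22716, SBRGG_06864, SBRGG_09718 and SBRGG_52580, named after their values were seen, all higher in row 2. The smallest adjusted p belonged to SBRGG_52635, whose row difference was 0.68 ± 0.19 (SE; limma, adjusted p = 0.234), with row 2 above row 1 in both sexes. For SBRGG_22716, one of the leading members, it was 0.50 ± 0.15 (SE; limma, adjusted p = 0.243).

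Within each row the females lay above the males for every member, which the absence of overlap fixes. The size varied. Over the members the median difference was 1.91 in row 1, with a range from 0.61 to 6.72, and 1.68 in row 2, with a range from 0.70 to 5.12. It was wider in row 1 for 35 of 60. The 2 rows lay over 1 log2 unit apart for 14 members, 11 of them wider in row 1. In SBRGG_44191 the difference was 6.72 in row 1 and 4.07 in row 2, and in SBRGG_37903 it was 2.46 and 5.12. In SBRGG_01849, by contrast, it was 2.02 and 2.03. Columns 2 and 4 held the females of row 1 and the males of row 2, so a sex difference that varies by row and an effect of column cannot be told apart.

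**Figure D4:**
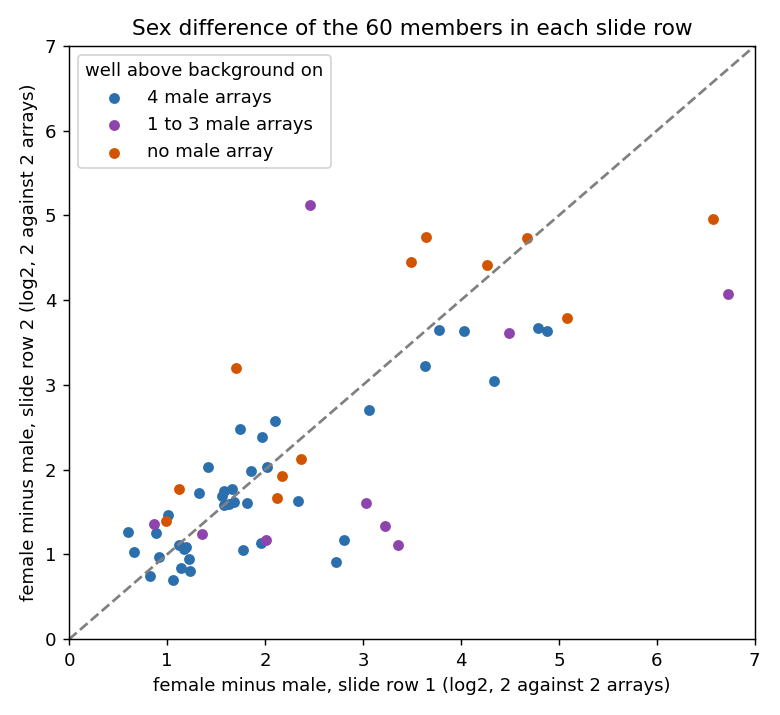
Female minus male log2 difference in slide row 2 (vertical axis) against that in row 1 (horizontal axis) for the 60 members, each from 2 females and 2 males; colours give the number of male arrays well above background and the dashed line marks equal differences. For 35 members the point lies below the line. The widest departures, such as 6.72 in row 1 against 4.07 in row 2, include members well above background on some or no male arrays.

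The spots of the members were spread over the array. Cut into 4 equal blocks, the spot grid held 15, 19, 14 and 12 of them, and 8 members had another member within 5 rows and 5 columns. Each member rests on 1 spot per array. The scanner software's own error of a spot had a median of 10.2% of the signal in females and 12.8% in males over the members. This error covers the reading of a spot and not the spread between fish. The comparison below rests on the sex contrast that chose the members. It was made on the intensity scale without scaling between arrays, so the deciding fish can differ from those that set the gap. In SBRGG_30397, for example, the lowest female signal was that of female 2, at 56.9 units, whereas female 4 set the gap. For 53 of 60 the lowest female signal minus error lay above the highest male signal plus error. The 7 others all ranked 39 or lower, and 2 of them were not well above background on any male array.

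A model across all probes gave a count that is printed for completeness, since it rests on the contrast that chose the members and nothing is read from it. Of 32850 probes tested in limma, 20 (0.0609%) were called higher in females at an adjusted p under 0.05, and these are 20 of the 60 members. The size of a member's difference changed with the normexp setting as a whole, whose offset by itself lowers any difference. After normexp, the median difference over the 60 members was 1.06 in place of 1.86 on the log2 scale. For the 12 members not well above background in males it was 0.76 in place of 3.22, and for the 39 measured on all 8 arrays 1.13 in place of 1.65.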

How the data were processed

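Per the file headers, the deposited spot intensity values are background-subtracted output of version 10.7.1.1 of Agilent's Feature Extraction software. A second table, of log2 values, was deposited by the authors. The submitters' processing notes name Partek without a version or settings. Control spots (1319) were left out, and 61580 spots of 60080 probes remained. For the model across probes, spots marked as non-uniform were set to missing, spots of 1 probe were averaged, and probes well above background on at least 4 of 8 arrays were tested (32850, of which 165 had a missing value). Differences between slide rows, with sex as covariate, and between sexes, without covariate, were fitted with limma 3.58.1 in R 4.3.3 (lmFit, eBayes, two-sided, Benjamini-Hochberg over all tested probes, threshold 0.05), checked on simulated data. Python 3.11.15, pandas 2.3.3, numpy 2.4.6 and matplotlib 3.10.9 were used. Nothing says more of the samples' independence than that each is 1 fish, and the number of arrays limits the precision.

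The members and lists were chosen with earlier results of these data known. Named members were ranks 1 to 12 by gap, the last 3 inside and first 3 outside, the 3 brightest and 3 dimmest in females, and those of widest range in a sex; others are said to have been named after their values were seen, as are ID neighbours. Rules for gene names, for other probes of a target and for marker lists found nothing to apply to, since each target had 1 probe and no ID had a name. Alternatives were other normalizations, normexp (offset 50), the authors' table, other filters and variance models, blocks for slide position, and each array left out. Normexp was run on median spot signals, since the tables hold no mean spot signals, and was followed by quantile normalization. Raising dim male values to the detection floor was added after seeing the data. Other groupings of the 8 fish were not run.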

Additional observations from a re-analysis of the deposited data

Results flagged for a closer look

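A sample far from the other 3 of its sex, by Dixon's test for 4 values, was found in 6 of 122 sets (each member in each sex, and the members' medians). For normally distributed values the test flags about 1 in 20 sets, or 6.1 of 122. These sets came from members chosen on extreme values in each sex, and some male spots lay near background. The 6 are therefore not judged against that rate. In SBRGG_44190 female 2 stood at 3.31, above the other females at 2.02 to 2.16. In SBRGG_10291 female 3 at 0.95 stood above the others at 0.72 to 0.75, and in SBRGG_29146 female 3 at 1.70 stood below the others at 2.53 to 2.69. Among males, male 2 in SBRGG_09148 stood at -1.50, below the others at 0.25 to 0.41, and male 1 in SBRGG_06771 at -3.97, below the others at -0.82 to -0.30. The spot of male 1 in SBRGG_06771 was not well above background. In SBRGG_02610 male 3 stood at -4.25, below the others at -3.41 to -3.36, and none of its males was well above background.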

How the results depend on the processing

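Of the 60 members, the same choice found 57 again after quantile normalization, 58 after median scaling, 57 in the authors' table, 60 with non-uniform spots kept, 59 with dim male values at the detection floor and 44 after normexp. Leaving out 1 array found 42 to 49. Ranking by the difference of means kept 31, and detection on all 8 arrays kept 39, as many as pass that filter. The median difference of 1.86 moved to 1.06 after normexp and lay between 1.64 and 1.90 under the other settings, 1.73 to 1.90 with 1 array left out. No member reversed its sign under any setting (0 of 60), which the separation of the sexes fixes when arrays are left out. The count of members called in limma, 20, became 10 with no filter on dim probes and 9 with slide column as a block. It ran from 8 to 20 with 1 array left out: 12, 13, 8 and 12 without females 1 to 4, and 9, 11, 8 and 20 without males 1 to 4. The other settings gave 14 to 25. No member differed between slide rows under any setting run (0; limma). The shares of all tested probes called are given above for the main fits only, so nothing is read from how these counts changed or did not. By the positive and significant mark, 0 members were undetected in all males, where 12 were not well above background in any. Leaving out 1 male gave 12 to 13 by the latter mark. Which part of each setting moved these values was not tested, and the normexp offset by itself lowers any difference. No paired analysis was possible because the labels give the fish no replicate numbers shared between the sexes, apart from the slide column block above, which sets 1 female beside 1 male by position.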

Other observations

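The targets numbered 1 before or 1 after a member's ID were looked up after the members' values had been seen. Of 117 such targets that were no members, 52 were well above background on all 4 female arrays. The differences of these 52 between the sexes had a median of 0.07 and ran from -0.60 to 1.09 on the log2 scale. The females lay entirely above the males in 2 of the 52 (3.85%), against 1.84% of the probes that passed the filter for members. The latter share includes the 60 members themselves. The 52 leave members out and were not filtered for single or uniform spots, so the shares are not of like sets. One was SBRGG_28904, at 2.31, 1.26, 1.60 and 2.37 in females and 0.91, 0.58, 0.77 and 0.93 in males, beside the dim member SBRGG_28905. The other was SBRGG_19533, at 0.00, -0.09, -0.73 and -0.78 in females and -1.43, -0.99, -1.62 and -1.59 in males, beside SBRGG_19532. Among the other 65 the females lay entirely above the males in 1, SBRGG_06865, beside SBRGG_06864. Its female mean was -3.37 ± 0.23 against -4.77 ± 0.33 for the males (SD, n = 4 each), a difference of 1.40, and 0 of its 8 spots were well above background. No test was made of these values.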
